A study of Mus musculus with 6 samples.

Results

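The matrix metalloproteinases (Mmp genes) and their tissue inhibitors (Timp genes) were followed as a set of 10 genes, chosen by name: Timp1, Timp2, Timp3, Timp4, Mmp2, Mmp9, Mmp11, Mmp14, Mmp16 and Mmp23. All 10 were found among the 23443 gene symbols of the tables, and 9 were tested, having reached 1 FPKM in 2 or more libraries, as did 10799 genes in all. FPKM scales the fragments of a transcript to its length and to the mapped fragments of the library, so levels of different genes can be set side by side. Timp4 was listed at 0 in every library and was not tested.

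Matrix metalloproteinases are zinc endopeptidases that cut collagens, proteoglycans and other matrix proteins, and that release growth factors held in the matrix. They are made as inactive proenzymes, and are either secreted or anchored in the cell membrane. Timp proteins block the active site of the enzymes, and the balance between enzyme and inhibitor sets how far matrix is remodelled in growing mesenchyme such as that of the palatal shelves.

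The libraries were made from red fluorescent cells sorted out of dissected mouse palatal shelves. Mutants carried Osr2RFP/- and controls Osr2RFP/+, so both genotypes had 1 reporter allele at Osr2, a transcription factor gene that palate growth depends on, and the mutants had a minus allele where the controls had the wild-type one. The comparison of mutant with control asks what differs in these cells when Osr2 is mutated. At embryonic day 12.5 (E12.5) there was 1 library per genotype, and at E13.5 there were 2. The strain background was mixed. The reporter at Osr2 drove the sort, which therefore selected for cells with an active Osr2 locus, though erythroid transcripts were present as well. The labels do not say whether a library came from 1 embryo or several. The p-values therefore measure only the spread between these libraries. In such bulk RNA, fewer cells of a type and less RNA per cell cannot be told apart.

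Each library held an estimated 14100000 to 17970000 fragments and had 10261 to 10478 genes at 1 FPKM or more. Osr2 was at 68.5 and 88.4 FPKM in the E13.5 mutants and 138 and 152 in the controls, and at 163 against 215 at E12.5. The 8 palatal mesenchyme markers summed to 769 to 937 FPKM, whereas 6 endothelium and 8 oral epithelium markers reached at most 0.534 and 5.47. The sums of 2 marker lists were higher in the E13.5 mutants than in the controls. The 7 neuron markers had 79.4 and 90.5 against 54.3 and 50.2 FPKM, with 3 of the 7 at a mean of at least 1 FPKM (Nefl, Nefm and Gap43). The neuron marker Tubb3 overlapped between genotypes (1.03 and 0.569 against 0.959 and 1.48), and the pan-neuronal gene Elavl3 was at 0.0711 or less. The 6 osteoblast markers had 101 and 109 against 35.3 and 30.1, with 3 of the 6 at that mean. The 10 erythroid markers found summed to 263 to 741 FPKM over the libraries, so erythroid transcripts were present in each. Their sum was lower in the E13.5 mutants (471 and 263 against 592 and 500). Single genes differed: Hba-a1 was lower (0.279 and 0.132 against 47.6 and 30.5) and Hba-a2 higher (38.5 and 23.8 against 0.551 and 1.71). Xist, made from the silenced X chromosome, was at 129 to 141 FPKM in both E12.5 libraries and in E13.5 mutant replicate 2, and at 0.0194 or less in the other libraries. The sample titles carry the number 2962 for the E12.5 pair, 3047 for mutant replicate 1 at E13.5 and 3048 for the remaining libraries, with no word on their meaning. No number occurs at both ages, so a difference with age cannot be told apart from one between title numbers. Age also goes in part with Xist, which both E12.5 libraries had and most E13.5 libraries lacked.

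Mmp2 and Timp2 were the most abundant members, with means over the 6 libraries of 57.9 and 54.2 FPKM. They were followed by Mmp14 (36.9), Mmp11 (22.4), Timp3 (11.3) and Mmp16 (7.78). Timp1 (1.54), Mmp9 and Mmp23 (1.26 each) were near the detection filter. Several neighbours in this order did not differ beyond their spread: Mmp2 exceeded Timp2 in 4 of 6 libraries, Timp3 exceeded Mmp16 in 5 of 6, Timp1 exceeded Mmp9 in 4 of 6 and Mmp9 exceeded Mmp23 in 3 of 6. Timp2 was above Mmp14, and Mmp16 above Timp1, with no overlap of their ranges.

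**Figure D1:**
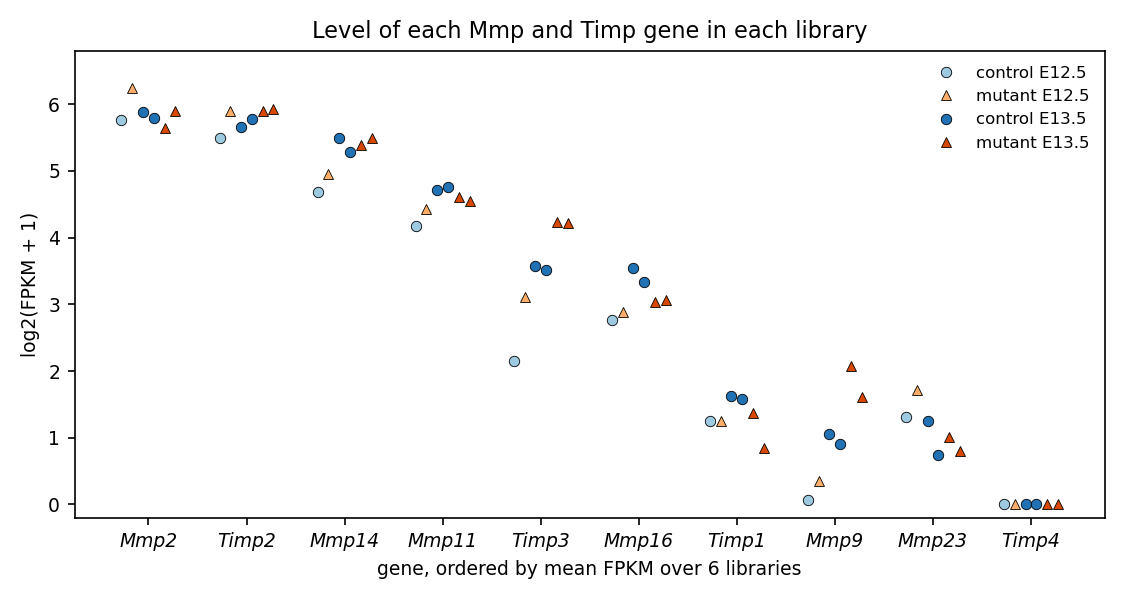
Level of each gene in each of the 6 libraries, as log2(FPKM + 1), with genes ordered by mean FPKM. Circles are controls and triangles mutants, in pale colours for E12.5 and dark colours for E13.5. Mmp2 and Timp2 lie at the top, Timp4 at 0 in all libraries, and Timp3 and Mmp9 have the widest spread between libraries.

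Across the set, Timp3 was the member that was called higher in mutants (1 of 9 tested), and Timp3, Mmp9 and Mmp14 were called higher at E13.5 than at E12.5 (3 of 9). Of these, Mmp9 passed the filter on low values through E13.5 libraries alone. No member was called lower in either contrast. Among all 10799 genes, 1.29% were called between genotypes at E13.5 (0.852% higher and 0.435% lower in mutants). Across both ages 1.44% were called (1.08% higher and 0.361% lower), and with age 16.7% (7.45% higher and 9.26% lower). The test was limma on log2(FPKM + 1), with p-values adjusted by Benjamini and Hochberg's method over the 10799 genes and a threshold of 0.05. A fold is taken from the difference on this scale, which is smaller than the ratio of FPKM for low genes. The median difference of the 9 members was -0.06 at E13.5, 0.12 across both ages and 0.36 for age, beside medians of 0.04, 0.09 and -0.07 over all genes tested.

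Timp3 encodes an inhibitor that binds to the extracellular matrix and blocks metalloproteinases as well as ADAM and ADAMTS proteases. The gene lies on chromosome 10, 86300412 to 86349505 (GRCm38, plus strand), wholly inside Syn3, a synapsin gene on the opposite strand, with no exon bases in common. It had 3.42 FPKM in the E12.5 control, 7.65 in the E12.5 mutant, 10.9 and 10.4 in the E13.5 controls and 17.9 and 17.6 in the E13.5 mutants. The mutants were above the controls at both ages without overlap, and every E13.5 library was above both E12.5 libraries. Syn3 itself was at 1.23 to 3.03 FPKM and did not follow this order, with its highest level in the E12.5 mutant and its lowest in E13.5 mutant replicate 1.

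At E13.5 the mean of Timp3 was 17.8 ± 0.241 FPKM in mutants and 10.7 ± 0.329 in controls (SD, n = 2 each), a 1.61-fold difference (log2 0.69, SE 0.12, limma adjusted p = 0.0298). The call at E13.5 was near the threshold: it was lost without E13.5 control replicate 1 (limma adjusted p = 0.141), control replicate 2 (0.224) or mutant replicate 2 (0.0530), while the difference stayed between 0.66 and 0.72. It was also lost with median ratio scaling (0.0535), upper quartile scaling (0.0648) and a filter of a mean of at least 1 FPKM (0.0527). Without mutant replicate 1, which leaves the libraries numbered 3048, it was 0.67 (limma adjusted p = 0.0481). Each such fit compares 1 library with 2, and the lone library is assumed to vary like the pair, so these p-values say little about stability.

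Across both ages, with 3 mutant and 3 control libraries, Timp3 rose 1.72-fold in mutants (log2 0.78, SE 0.10, 95% interval 0.55 to 1.01, limma adjusted p = 0.00517). This call held in all 6 fits that left out 1 library (adjusted p of 0.00576 to 0.0422) and under the 3 other scalings. The fits without the E12.5 mutant or the E12.5 control are not separate checks, as the age term takes up the lone E12.5 library. Each of them gave the E13.5 difference of 0.69. The call across both ages was lost with no filter on low values (limma adjusted p = 0.275), where the adjustment covers 23418 genes. The E13.5 libraries enter both contrasts, so the contrasts are not independent. Of the genes called across both ages 75% were higher in mutants (117 of 156). This share was 51.3%, 56.5% and 54.3% when libraries were scaled to the same FPKM sum, by median ratio or to the same upper quartile. Under these scalings, in the same order, the Timp3 difference was smaller, at 0.69, 0.70 and 0.68. The neuron and osteoblast marker sums were higher in mutants at E12.5 as well (43.5 against 33.7 and 52.3 against 20 FPKM). The erythroid sum was lower in mutants at E13.5 but not at E12.5 (741 against 695 FPKM). These E12.5 sums are not scaled, and FPKM of all genes summed to 189401 in the E12.5 mutant and 154523 in the control. The part of these marker sums in the Timp3 difference was not tested.

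With age, Timp3 rose 2.39-fold (log2 1.26, SE 0.11, 95% interval 1.01 to 1.502, limma adjusted p = 0.00018). Like every difference with age here, this rise cannot be told apart from title number or, in part, from the presence of Xist. The step from E12.5 to E13.5 was 1.398 on the log2 scale in controls and 1.12 in mutants. These steps were not shown to differ (interaction of genotype and age -0.28, 95% interval -0.75 to 0.19, limma adjusted p = 0.872). In this contrast 44.6% of the 1804 called genes were higher at E13.5, and 59.1%, 55.3% and 61.0% under those 3 scalings.

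**Figure D2:**
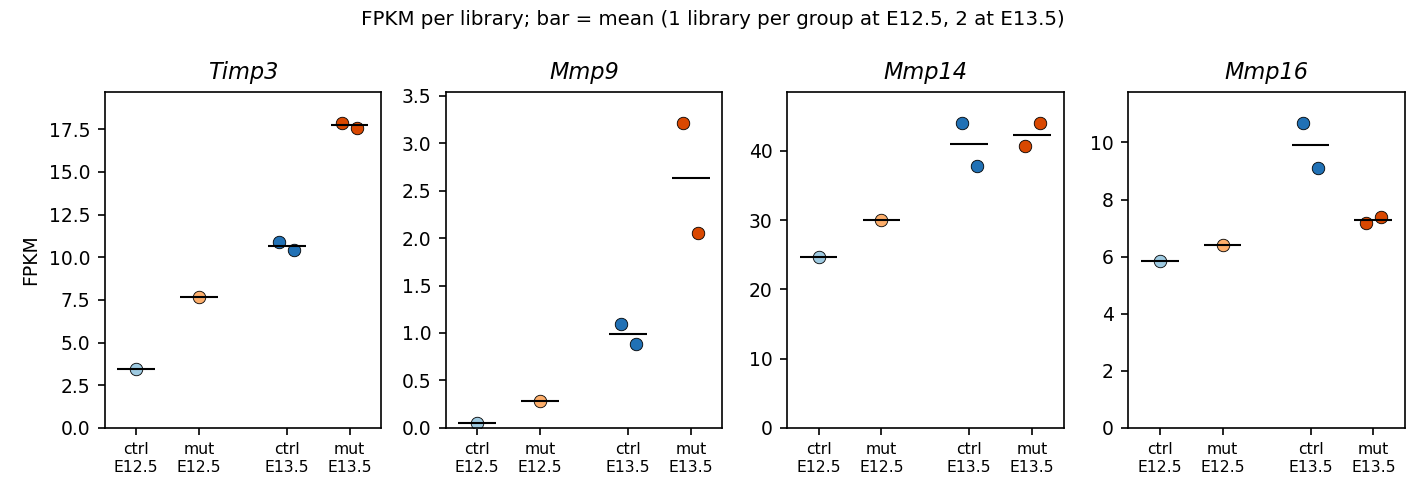
FPKM per library of Timp3, Mmp9, Mmp14 and Mmp16, with points for libraries and bars for group means, of 1 library at E12.5 and 2 at E13.5. In Timp3 and Mmp9 the mutants lie above the controls at both ages, in Mmp14 the genotypes overlap at E13.5, and in Mmp16 the E13.5 mutants (7.19 and 7.39) lie below the controls (10.7 and 9.12).

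RefSeq promoter windows (GRCm38.p6) of 250 bases before to 50 after the annotated start are shown for 3 members. Timp3 is shown as the member that rose in mutants, Mmp14 as an abundant member that rose with age, and Timp4 as the member with no signal. Of the 10 members, 7 matched the promoter table. Capitals mark matches, on either strand, to the GC box letters GGGCGG and to the RUNX letters TGTGGT. No match of the AP-1 letters TGANTCA or the TATA letters TATAAA was found in these windows, and the matches shown do not overlap each other.
Timp3, plus strand, chr10:86300162-86300461: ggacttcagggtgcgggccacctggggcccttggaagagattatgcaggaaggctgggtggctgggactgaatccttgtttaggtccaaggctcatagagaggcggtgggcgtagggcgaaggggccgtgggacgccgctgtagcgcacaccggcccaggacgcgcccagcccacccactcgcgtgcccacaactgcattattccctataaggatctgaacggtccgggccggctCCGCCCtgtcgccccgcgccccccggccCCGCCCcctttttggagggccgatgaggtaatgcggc
Mmp14, plus strand, chr14:54431348-54431647: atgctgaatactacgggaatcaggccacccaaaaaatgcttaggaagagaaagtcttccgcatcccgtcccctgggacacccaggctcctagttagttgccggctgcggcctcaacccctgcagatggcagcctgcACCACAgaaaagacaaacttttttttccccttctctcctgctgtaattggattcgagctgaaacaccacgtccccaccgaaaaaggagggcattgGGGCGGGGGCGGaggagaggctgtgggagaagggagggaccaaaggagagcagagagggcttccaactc
Timp4, minus strand, chr6:115252156-115252455: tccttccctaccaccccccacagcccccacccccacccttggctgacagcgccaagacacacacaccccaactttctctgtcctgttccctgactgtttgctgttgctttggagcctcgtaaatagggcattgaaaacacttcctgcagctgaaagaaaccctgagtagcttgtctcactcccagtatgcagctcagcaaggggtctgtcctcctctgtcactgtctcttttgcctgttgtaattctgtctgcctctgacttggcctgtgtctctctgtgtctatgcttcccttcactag
The Timp3 window had 67% G and C bases, 24 CpG sites and 2 GC boxes. The Mmp14 window had 56% G and C bases, 10 CpG sites, 2 adjoining GC boxes and 1 RUNX match. The Timp4 window had 53.3% G and C bases, 2 CpG sites and none of the 4 motifs. Its ratio of observed to expected CpG was 0.104, against 0.714 for Timp3 and 0.425 for Mmp14. The median over 32851 windows of the same length was 0.384 for that ratio and 52.7% for G and C. A GC box was present in 35.7% of those windows, a RUNX match in 16.8%, an AP-1 match in 7.81% and a TATA match in 13.6%. Such matches describe letters and are not evidence that a factor binds there.

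Timp2 was the main inhibitor transcript by level. Besides blocking metalloproteinases, Timp2 links Mmp14 at the cell surface to the proenzyme of Mmp2, which Mmp14 then activates. Timp2 (chromosome 11, 118301061 to 118355411, minus strand) had 44.2 FPKM in the E12.5 control, 58.4 in the E12.5 mutant, 49.7 and 54.0 in the E13.5 controls and 58.6 and 60.1 in the E13.5 mutants. The mutants were above the controls at both ages without overlap, but the range was narrow. The genotype difference did not pass at E13.5 (log2 0.19, SE 0.13, limma adjusted p = 0.794) or across both ages (0.26, SE 0.11, limma adjusted p = 0.38), nor did the difference with age (0.12, limma adjusted p = 0.504).

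Timp1 encodes a secreted inhibitor that can be induced in many cell types. It lies on the X chromosome, 20870166 to 20874737 (plus strand), inside Syn1 on the opposite strand. Summed over its 2 RefSeq transcripts, of 890 and 887 bases, it had 1.37 FPKM in the E12.5 control, 1.39 in the E12.5 mutant, 2.08 and 2.00 in the E13.5 controls and 1.59 and 0.802 in the E13.5 mutants. Both E13.5 mutants were below both controls. The difference at E13.5 was -0.49 (SE 0.18, 95% interval -0.89 to -0.09, limma adjusted p = 0.375) and did not pass. These levels rest on an estimated 26.7 to 73.3 fragments per library. Mutant replicate 2, the lowest, was also the E13.5 library with Xist, and without it the difference was -0.23 (limma adjusted p = 0.726), whereas without mutant replicate 1 it was -0.75 (limma adjusted p = 0.0606). The split between the 2 transcripts was unstable: in the E12.5 mutant nearly all signal went to the longer transcript (1.39 against 0.00145 FPKM) and in the E12.5 control to the shorter (1.37 against 0.00138), so the transcripts were not compared.

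Timp4, known mainly from heart and brain, was at 0 FPKM in all 6 libraries. It lies on chromosome 6, 115244444 to 115252205 (minus strand), inside Syn2, whose exons share 90 bases with its exons. Syn2 was at 0.0541 FPKM or less.

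Among the secreted enzymes, Mmp2 and Mmp9 are the gelatinases, which cut denatured collagen and basement membrane collagen. Mmp2 (chromosome 8, 92827290 to 92853421, plus strand) had 53.3 FPKM in the E12.5 control, 74.6 in the E12.5 mutant, 57.9 and 54.2 in the E13.5 controls and 48.8 and 58.8 in the E13.5 mutants. The E12.5 mutant stood highest and the other 5 libraries lay within 48.8 to 58.8. The genotype difference at E13.5 was -0.06 (SE 0.15, 95% interval -0.39 to 0.27, limma adjusted p = 0.943), and that with age was -0.20 (limma adjusted p = 0.395). Without the E12.5 mutant the age difference was 0.07.

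Mmp9 (chromosome 2, 164940326 to 164955850, plus strand) was low. It had 0.0507 FPKM in the E12.5 control, 0.280 in the E12.5 mutant, 1.09 and 0.881 in the E13.5 controls and 3.22 and 2.05 in the E13.5 mutants. The order was that of Timp3, with mutants above controls at both ages and E13.5 above E12.5. Mmp9 passed the filter through E13.5 libraries alone, so the filter and the age difference rest on the same high values. The rise with age was 2.30-fold (log2 1.20, SE 0.17, 95% interval 0.81 to 1.59, limma adjusted p = 0.00284). This call held in all 6 fits that left out 1 library, with an adjusted p of up to 0.0482, and was lost with no filter (0.132). The age difference depended on the pseudocount, at 2.83 with 0.1 and 0.39 with 5, in place of 1.

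The genotype difference of Mmp9 missed the threshold. At E13.5 its mean was 2.63 ± 0.833 FPKM in mutants and 0.985 ± 0.148 in controls (SD, n = 2 each, log2 0.86, SE 0.18, limma adjusted p = 0.0631). The adjusted p was 0.0300 without mutant replicate 2, and ranged from 0.0525 to 0.664 over the alternatives with all E13.5 libraries. Across both ages the difference was 0.66 (SE 0.16, limma adjusted p = 0.103). The E12.5 control level rests on an estimated 6.62 fragments, so the E12.5 ratio is poorly determined.

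Mmp9 is also made by leukocytes and osteoclasts. The 7 leukocyte markers found summed to 3.64 and 2.18 FPKM in the E13.5 mutants, 3.48 and 2.61 in the controls, and 1.80 and 4.03 in the E12.5 mutant and control. Of these markers, 1 of 7 had a mean of at least 1 FPKM, and Ptprc, the gene of the leukocyte antigen CD45, was at 0.0414 FPKM or less. The 6 osteoclast markers summed to 3.59 and 3.09 in the E13.5 mutants, 4.64 and 4.62 in the controls, and 1.89 and 2.48 in the E12.5 mutant and control. Most of that was the protease gene Ctsk, while Acp5 was at 0.308 or less and Ocstamp and Dcstamp were at 0 in all libraries. The part of such cells in the Mmp9 levels was not tested.

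Mmp11, or stromelysin-3, is a secreted enzyme that is activated inside the cell by furin. Mmp11 (chromosome 10, 75923221 to 75932502, minus strand) overlaps Chchd10, a gene on the opposite strand at 0.342 to 1.25 FPKM, with no exon bases in common. Mmp11 had 17.1 FPKM in the E12.5 control, 20.5 in the E12.5 mutant, 25.1 and 26.2 in the E13.5 controls and 23.3 and 22.4 in the E13.5 mutants. All E13.5 libraries were above both E12.5 libraries, and the E13.5 mutants were just below the controls. The age difference was 0.36 (SE 0.12, limma adjusted p = 0.0766) and passed under each of the 3 other scalings (0.0207, 0.0284 and 0.0225). It was 0.15 without the E12.5 control (limma adjusted p = 0.552) and 0.56 without the E12.5 mutant (0.079). The genotype difference at E13.5 was -0.16 (limma adjusted p = 0.83).

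Among the membrane-anchored enzymes, Mmp14, or MT1-MMP, cuts fibrillar collagen at the cell surface and activates Mmp2. Mmp14 (chromosome 14, 54431598 to 54442456, plus strand) had 24.6 FPKM in the E12.5 control, 30.0 in the E12.5 mutant, 44.1 and 37.8 in the E13.5 controls and 40.7 and 44.0 in the E13.5 mutants. Both genotypes were higher at E13.5, and the E13.5 genotypes overlapped. Mmp14 rose 1.51-fold with age (log2 0.60, SE 0.12, 95% interval 0.32 to 0.88, limma adjusted p = 0.0131). With only 2 libraries at E12.5, the call was lost without the E12.5 mutant (limma adjusted p = 0.0526) or the E12.5 control (0.115), and also with no filter (0.116). The genotype difference at E13.5 was 0.05 (95% interval -0.27 to 0.36, limma adjusted p = 0.953).

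Mmp16, or MT3-MMP, is a relative of Mmp14 in the same membrane-type group. The deposited transcript of Mmp16 lies on chromosome 4 on the plus strand. It had 5.83 FPKM in the E12.5 control, 6.40 in the E12.5 mutant, 10.7 and 9.12 in the E13.5 controls and 7.19 and 7.39 in the E13.5 mutants. The E13.5 controls were the 2 highest libraries, and the E13.5 mutants lay between them and the E12.5 pair. The genotype difference at E13.5 was -0.40 (SE 0.13, 95% interval -0.68 to -0.11, limma adjusted p = 0.287) and did not pass. The age difference was 0.42 (SE 0.13, limma adjusted p = 0.0596), and it passed under the 3 other scalings (0.0179, 0.0274 and 0.0225) and without the E12.5 mutant (0.67, adjusted p = 0.0486), but was 0.16 without the E12.5 control (0.533). The step with age was 0.67 in controls and 0.16 in mutants, and the interaction of genotype and age was -0.51 (SE 0.22, limma adjusted p = 0.833).

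Mmp23 encodes a small enzyme anchored at its amino terminus and lacking the usual haemopexin domain. Mmp23 (chromosome 4, 155650655 to 155654539, minus strand) had 1.47 FPKM in the E12.5 control, 2.29 in the E12.5 mutant, 1.38 and 0.674 in the E13.5 controls and 1.01 and 0.735 in the E13.5 mutants. It was the member with every E13.5 library below both E12.5 libraries. The age difference was -0.56 (SE 0.17, limma adjusted p = 0.0548). It was -0.71 without E13.5 control replicate 1 (limma adjusted p = 0.0186) and -0.31 without the E12.5 mutant (0.501). The genotype difference at E13.5 was -0.09 (95% interval -0.51 to 0.32, limma adjusted p = 0.933).

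**Figure D3:**
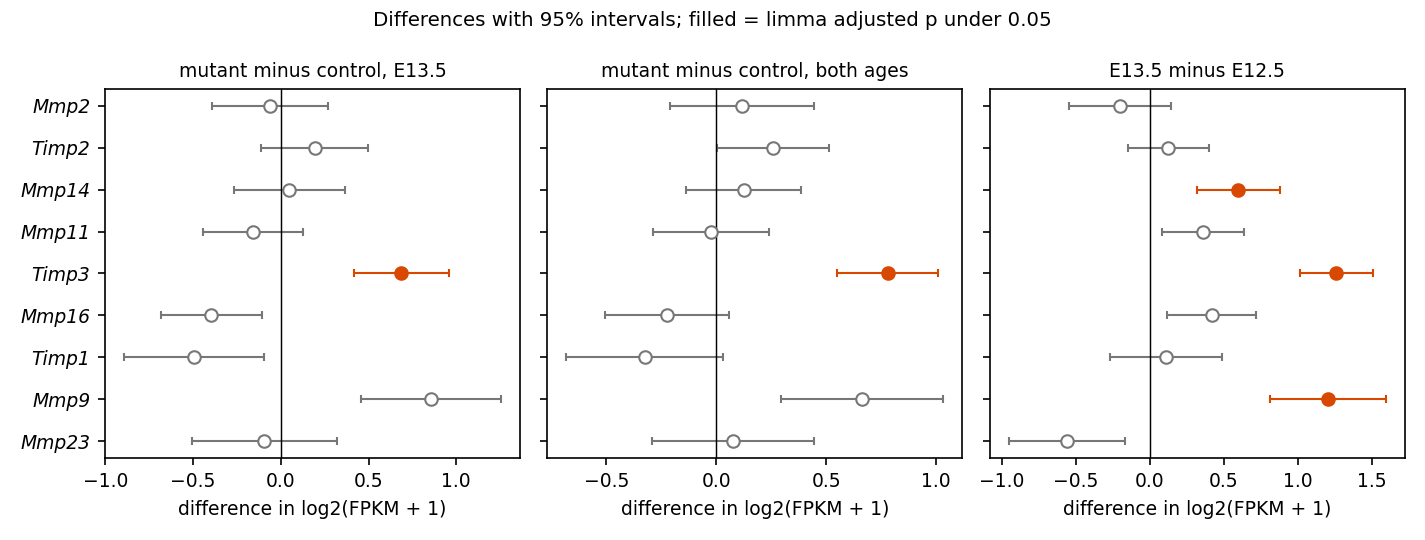
Differences in log2(FPKM + 1) of the 9 tested members with 95% intervals, for mutant minus control at E13.5, mutant minus control across both ages and E13.5 minus E12.5. Filled points have a limma adjusted p under 0.05, which are Timp3 in all 3 panels and Mmp9 and Mmp14 with age.

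Counted by overlap of the libraries, 3 of 9 tested members (Timp3, Mmp9 and Timp2) had both E13.5 mutants above both controls, and 3 (Mmp11, Mmp16 and Timp1) had both below. Among all genes tested 38.0% did not overlap, with 24.8% above and 13.2% below. The 3 higher members were also higher in the mutant at E12.5, an order at both ages that 21.4% of all genes shared. With age, 5 of 9 members (Timp3, Mmp9, Mmp14, Mmp11 and Mmp16) had all 4 E13.5 libraries above both E12.5 libraries and 1 (Mmp23) had them below. The shares over all genes were 13.6% and 22.9%, together 36.5%. No member passed the interaction of genotype and age (limma, 0 of 9), where 0.0370% of all genes were called, 0.0278% higher and 0.00926% lower. At an unadjusted limma p under 0.05 there was 1 of 9 members, Mmp16, beside 627 of all 10799 genes.

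In the single E12.5 pair, with no test, all 9 expressed members were higher in the mutant, but so was the median gene, by 0.18 on the log2 scale. Only 20.6% of the tested genes had a difference below 0. The FPKM of all genes summed to 189401 in the mutant and 154523 in the control. Relative to the median gene, which by definition divides the tested genes evenly, 7 of 9 members were higher. Timp3 had the largest difference at a pseudocount of 1, 0.97, and 99.3% of the tested genes had a smaller one. At a pseudocount of 0.1 Timp3 was at 1.136 and Mmp9, on few fragments, at 1.333. Mmp2 followed at 0.48, Mmp23 at 0.42 and Timp2 at 0.39, while Timp1 had 0.01. With libraries scaled to the same FPKM sum Timp3 was at 0.72 and Mmp2 at 0.19, while Mmp11, Mmp14, Mmp16 and Timp1 were at -0.03, -0.0061, -0.14 and -0.16. Median ratio and upper quartile scaling left Mmp16 (-0.04 and -0.08) and Timp1 (-0.09 and -0.12) lower in the mutant. At a pseudocount of 1 no member reached a difference of 1 at 5 FPKM or more, which 0.936% of 6092 genes did, whereas Timp3 passed that size at 0.1.

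The make-up of the inhibitor pool differed between the libraries, and is given without a test. Timp3 gave 6.99% of summed Timp FPKM in the E12.5 control, 11.3% in the E12.5 mutant, 17.4% and 15.7% in the E13.5 controls and 23.0% and 22.4% in the E13.5 mutants. Timp2 gave the most in every library, from 75.0% to 90.2%, and was 12.9 times Timp3 in the E12.5 control and 3.27 and 3.41 times in the E13.5 mutants. Among the enzymes, the ratio of Mmp2 to Mmp14 was 2.17 and 2.49 in the E12.5 control and mutant, 1.31 and 1.43 in the E13.5 controls and 1.20 and 1.34 in the E13.5 mutants. It was lower in every E13.5 library than in either E12.5 library. The ratio of summed Timp to summed Mmp FPKM was 0.479 and 0.503 in the E12.5 control and mutant, 0.447 and 0.515 in the E13.5 controls and 0.629 and 0.580 in the E13.5 mutants, so the E13.5 mutants had the highest ratios. Such ratios within a library do not change when the library is rescaled, and they describe transcripts, not enzyme activity.

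**Figure D4:**
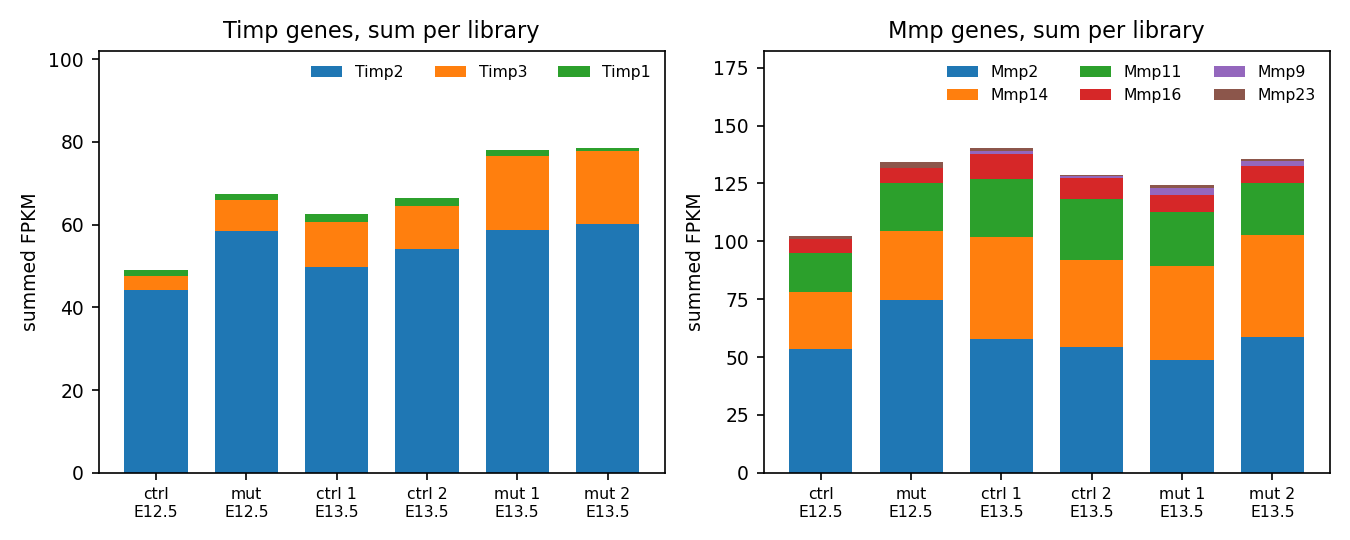
Summed FPKM of the Timp genes (left) and the member Mmp genes (right) in each of the 6 libraries, stacked by gene, with Timp4 left out because it was at 0. Timp2 and Mmp2 make up the largest parts in every library, and the Timp3 part grows from the E12.5 control (3.42 FPKM) to the E13.5 mutants (17.9 and 17.6).

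The 6 member Mmp genes held 97.7% to 98.4% of all Mmp FPKM in each library. Of the 17 other Mmp symbols, 7 were at 0 in all libraries and 15 were under 0.5 FPKM throughout. The other 2, Mmp15 and Mmp17, were tested, and neither passed in any contrast. Mmp15, a membrane-type enzyme, was at 0.818 to 1.62 FPKM.

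Genes that activate, bind or clear these enzymes formed a list of 20, of which 16 were tested. Of the 16, Thbs2 was called higher in mutants at E13.5, none was called lower, and 15 did not pass. Of all genes, 0.852% were called higher and 0.435% lower in that contrast. Thbs2 encodes a thrombospondin that binds Mmp2 and leads to its uptake. It had 6.61 and 5.87 FPKM in the E13.5 mutants, 1.35 and 1.32 in the controls, and 0.989 and 0.679 in the E12.5 mutant and control (log2 1.63 at E13.5, limma adjusted p = 0.000688). Across both ages Thbs2 was called higher (limma adjusted p = 0.0453) and Plat lower, of 16, beside 1.08% and 0.361% of all genes. Plat, the gene of tissue plasminogen activator, had 1.58 FPKM in the E12.5 mutant against 2.56 in the control, and 1.0 and 1.16 in the E13.5 mutants against 1.98 and 2.43 (log2 -0.57, limma adjusted p = 0.0384). The Plat call was lost in all 6 fits that left out 1 library (adjusted p of 0.0551 to 0.149). That of Thbs2 across both ages was lost under each of the 3 other scalings (0.0718, 0.124 and 0.141), without E13.5 mutant replicate 1 (0.185) and without E13.5 control replicate 1 (0.164).

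With age, 6 of the 16 were called higher, 1 lower, and 9 did not pass, beside 7.45% higher and 9.26% lower of all genes. The 4 with the smallest p were Cd44, a hyaluronan receptor that anchors Mmp9 at the cell surface (log2 1.77, limma adjusted p = 0.00018), Thbs1 (0.96, adjusted p = 0.00122), the protease inhibitor gene Serpine2 (0.89, adjusted p = 0.00252) and Cldn1, a claudin gene (0.76, adjusted p = 0.00893). The Cldn1 call was lost without the E12.5 mutant (limma adjusted p = 0.0922) or the E12.5 control (0.0523). Cd44 went from 0.533 and 0.638 FPKM in the E12.5 mutant and control to 6.15 and 4.77 in the E13.5 mutants and 3.52 and 3.55 in the controls. Cd44 and Cldn1 passed the filter on low values through E13.5 libraries alone, so filter and age difference rest on the same high values. Reck, a membrane-anchored inhibitor of several Mmp proteins, was at 8.28 to 11.9 FPKM, and Bsg, an inducer of Mmp genes, at 34.4 to 53.6.

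Among 23 tested ADAMTS and other matrix proteases, none passed at E13.5 between genotypes. At an unadjusted limma p under 0.05 there were 6 of these 23, beside 998 of all 10799 genes. Across both ages 1 was called higher, Adamts6, and none lower, beside 1.08% and 0.361% of all genes. Adamts6 had 3.46 FPKM in the E12.5 mutant against 1.95 in the control, and 1.93 and 2.45 in the E13.5 mutants against 1.25 and 1.25 (log2 0.53, limma adjusted p = 0.0457). That call was lost in all 6 fits that left out 1 library (adjusted p of 0.0691 to 0.171). With age 7 were called higher and 2 lower, and 14 did not pass, beside 7.45% higher and 9.26% lower of all genes. The 4 with the smallest p all rose: Adamts2, which trims procollagen (log2 1.09, limma adjusted p = 0.000408), Adamts12 (0.90, adjusted p = 0.00124), Adamts1 (0.72, adjusted p = 0.00327) and Ctsk, cathepsin K (0.68, adjusted p = 0.00378). Without the E12.5 control the calls of Adamts1 (limma adjusted p = 0.0503) and Ctsk (0.0517) were lost. The median difference with age was 0.20 in this list and 0.27 in the list of regulators, beside -0.07 over all genes.

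The genes most like the 3 called members over the 6 libraries were found by Pearson correlation of log2(FPKM + 1), among 5439 genes with a mean of at least 5 FPKM. Timp3 was most like Cdc37l1 (r = 0.999), Myc (0.998) and Egfl6 (0.995). Myc, a transcription factor of cell growth, had 7.99 FPKM in the E12.5 control, 15.1 in the E12.5 mutant, 22.3 and 20.7 in the E13.5 controls and 33.6 and 31.2 in the E13.5 mutants. Mmp9 was most like Aebp1 (0.992), Col12a1 (0.989) and Klf4 (0.988), and Mmp14 was most like Ddx54 (0.997), Gpr124 (0.995) and Ppp1r14b (0.994). With 6 libraries that share their depth and group structure such values are common: 224 genes had r of at least 0.9 with Timp3, 98 with Mmp9 and 295 with Mmp14.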

How the data were processed

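Per the labels' protocols, sorted cells gave poly A RNA that was sequenced as paired reads of 75 bases. The protocols mention a Nextera kit as well as a stranded TruSeq kit. The submitters' processing notes list TopHat 1.4.1, Bowtie 0.12.7, mm10 and mm9. The deposited files are Cufflinks tables with FPKM for 31579 RefSeq transcripts per library. Their deposited coverage signal was used only to estimate fragments, as covered bases divided by 150. Read counts are not in these columns, so counting error is not given, and a gene cannot be told apart from an antisense neighbour because strand use is not stated.

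FPKM was summed per symbol, and 25 symbols with a failed estimate were left out. Loci are from RefSeq on GRCm38.p6, and overlaps from GENCODE M21. The deposited Mmp16 transcript ran past its RefSeq locus, which is therefore not printed.

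Tests used limma 3.58.1 in R 4.3.3 (two-sided, trend on mean level). Group means gave the E13.5 genotype contrast and the interaction, where the single libraries at E12.5 take their spread from E13.5. A model with age and genotype gave the contrasts across ages. Only the E13.5 genotype contrast was tried on simulated data, and the other contrasts were not. The members and lists were chosen with earlier results of these data known. The naming rule covered all members, listed genes past the threshold for genotype, up to 4 per list for age, other Mmp genes with a mean of at least 1 FPKM and the 3 most correlated genes of each called member. Reck, Bsg, Mmp17, marker genes and overlapping genes were named after their values were seen. Alternatives varied the pseudocount, filter, scaling, trend and libraries.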

Additional observations from a re-analysis of the deposited data

How the results depend on the processing

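Timp3 across both ages and with age passed under every alternative run except no filter on low values (limma adjusted p = 0.275 and 0.0618). At E13.5 Timp3 failed in 7 of 16 alternatives, all given above except no filter (limma adjusted p = 0.248). Of these 16, the fits without an E12.5 library or with E13.5 libraries alone could not change the E13.5 difference. They are therefore no check of it. With no filter 0 members passed in any contrast, and the genes called numbered 5 at E13.5, 0 across both ages (1980 at an unadjusted p under 0.05), 31 with age and 343 for the interaction, against 139, 156, 1804 and 4. At E13.5 the number of members called was also 0 with a mean of at least 1 FPKM, median ratio scaling and upper quartile scaling. There the genes called numbered 81, 79 and 71, and 54 with a mean of at least 5 FPKM. That last filter gave 93 genes across both ages and 993 with age. With age 5 members passed under each of the 3 other scalings, Mmp11 and Mmp16 being added, beside 1746, 1927 and 1871 of all 10799 genes. For the interaction 11 genes were called with a mean of at least 1 FPKM and 2 under median ratio and upper quartile scaling. The causes were not tested.

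Leaving out 1 library gave 75 to 192 genes at E13.5, 65 to 159 across both ages, 465 to 1713 with age and 13 to 37 for the interaction, and 0 to 1, 1 to 1, 2 to 4 and 0 to 0 members. Without 1 library at a time, uncalled differences crossed 0. With age these were Mmp2 (-0.47 to 0.070) and Timp1 (-0.14 to 0.36). Across both ages they were Mmp11 (-0.16 to 0.034), Mmp2 (-0.062 to 0.25) and Mmp23 (-0.093 to 0.27), and at E13.5 Mmp14 (-0.060 to 0.16), Mmp2 (-0.20 to 0.070) and Mmp23 (-0.35 to 0.16). Upper quartile scaling turned Mmp14 at E13.5 to -0.0073. Scaling to the same FPKM sum turned the interaction of Mmp14 to 0.042 and of Timp2 to 0.074, and a pseudocount of 0.1 turned that of Mmp9 to -0.028. The median interaction over all genes was -0.13, and 0.10, -0.021 and 0.0039 under the 3 scalings.

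The title numbers 2962 and 3048 occur in both genotypes, and a replicate block by title number was added after seeing the data. The labels do not say that the numbers pair the libraries, and mutant replicate 1 of E13.5, alone in 3047, takes no part. Among the rest, 2962 is all E12.5 and 3048 all E13.5, so the block stands for age. Its differences are those of the fit without mutant replicate 1 of E13.5 (Timp3 at 0.80 in both). It is therefore no separate check, and pairing of libraries was not tested. With this block 61 genes and 1 member were called across both ages, against 156 and 1. Timp3 was at 0.80 (limma adjusted p = 0.0429) and Mmp11 at 0.00058, while Thbs2 (0.184), Plat (0.153) and Adamts6 (0.0774) no longer passed. With 1 library per genotype at E12.5, differences at that age rest on a single pair. Low levels limit Timp1, Mmp9 and Mmp23 most.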
